A study of Mus musculus with 24 samples.

Results

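Brown adipose tissue (BAT) of mice labelled Gfap-Bmal1 cKO was compared with BAT of control mice after both had eaten a high fat diet (HFD), across all annotated genes. The arrays were chosen by their titles, BAT-KO-HFD-1 to 3 and BAT-WT-HFD-1 to 3, which make 6 of the 24 arrays of the series and are called cKO and control arrays here. The cKO label stands for a conditional knockout of Bmal1 (gene symbol Arntl) directed by Gfap. The control mice are described as controls, with WT in their titles and nothing further. Both groups had been fed HFD for 16 weeks before the tissue was taken, and total RNA came from 20 mg of BAT. Cre line, strain, age and sex are not stated in the labels. By its title the study concerned astrocytic control of energy expenditure, and BAT was the peripheral tissue taken. A further 3 cKO and 3 control arrays of BAT from mice on standard diet (SD) entered the same statistical fit and served as a second view of each gene. Nothing in the labels ties the arrays of a group to separate animals, so each p-value measures the spread between arrays, which may be technical.

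BAT burns fatty acids and glucose to produce heat. Sympathetic nerves release noradrenaline onto brown adipocytes, cAMP rises, stored triglyceride is hydrolysed, and uncoupling protein 1 lets protons leak across the inner mitochondrial membrane in place of making ATP. The tissue depends on a dense capillary bed for oxygen and fuel, and long feeding of fat is known to enlarge its lipid droplets. Bmal1 is the transcription factor that, paired with Clock, drives the daily cycle of the Period and Cryptochrome genes. Gfap is a gene of astrocytes and of some glia of peripheral nerves, so brown adipocytes and the cells of vessels are not the cells at which a Gfap-directed deletion is aimed.

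The values were log2 signals, in which 1 unit is a doubling. Ucp1, the gene of uncoupling protein 1, stood at the highest value of the table, 19.93, on all 6 HFD arrays, and the lipid droplet gene Cidea lay between 18.35 and 18.69, as the labelled tissue requires. Signals could not differ at that ceiling: 38 of 17124 tested genes, Ucp1 and Fabp4 among them, lay within 0.05 of it on all 6 arrays. At the lower end, 19.8% of the tested genes averaged below 4.73, the lowest array median of the 5222 negative control features. The 6 HFD arrays correlated with each other at 0.986 to 0.994. Skeletal muscle signal differed between arrays. The mean log2 signal of 36 contractile genes was 5.48, 8.37 and 10.76 on cKO arrays 1, 2 and 3 and 6.22, 5.45 and 7.69 on control arrays 1, 2 and 3. On SD it was 12.52, 15.51 and 14.62 on cKO arrays and 14.51, 5.46 and 14.49 on control arrays. On HFD the ranges of the genotypes overlapped through cKO array 1, while cKO arrays 2 and 3 lay above every control array.

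**Figure D1:**
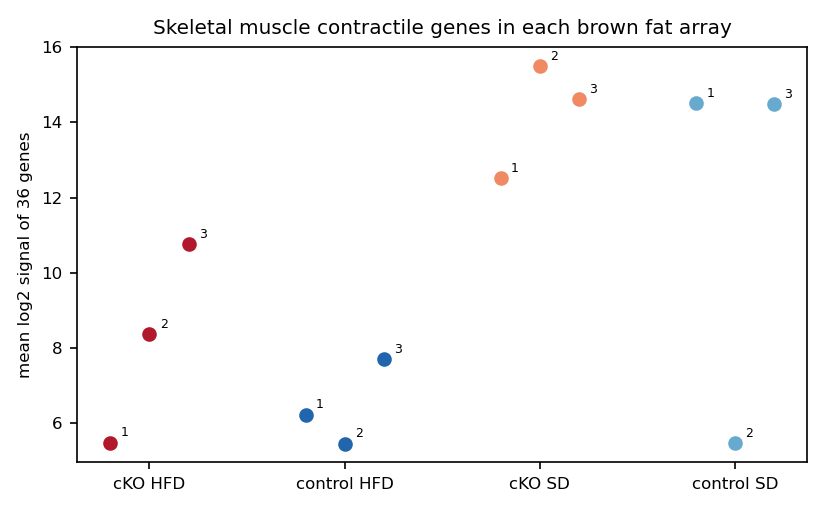
Mean log2 signal of 36 skeletal muscle contractile genes on each of the 12 BAT arrays, cKO HFD, control HFD, cKO SD and control SD from left to right, with array numbers beside the points. HFD arrays lie between 5.45 and 10.76, and 5 of the 6 SD arrays lie at 12.52 or above.

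Arntl, the gene named in the genotype, was not lower in the cKO arrays. Its log2 signal was 6.87, 7.07 and 6.47 on the cKO arrays, against 6.29, 6.41 and 6.69 on the control arrays. The groups overlapped, and the difference of 0.34 had an exact two-sided permutation p of 0.2, where 0.1 is the smallest that 3 against 3 arrays can give. Which part of Arntl was deleted is not stated. Brown adipocytes and the cells of vessels are also not the cells at which the deletion is aimed. The signal therefore cannot check the genotype, and each direction below rests on the labels.

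No gene passed the threshold of 0.05 on the adjusted p in the comparison of cKO with control arrays on HFD (limma over the 12 BAT arrays, 0.0% of 17124 genes tested). The smallest adjusted p was 0.0578, shared by Tnc and Rassf9. At an unadjusted p under 0.05 there were 1414 genes, or 8.26%, of which 923 (5.39%) were lower and 491 (2.87%) higher in cKO arrays. In 2140 genes (12.5%) all 3 cKO arrays lay below all 3 control arrays, and in 1256 (7.33%) they lay above, 19.8% in all. A fit of the 6 HFD arrays alone also called no gene (0.0%, smallest adjusted p 0.172), with 1504 genes (8.78%) lower and 760 (4.44%) higher at an unadjusted p under 0.05. The balance leaned towards lower signals in the cKO arrays, with 53.0% of differences below 0 and 46.7% above, while the median difference over all genes was -0.016. Control array 3 most often lay nearest to the cKO arrays: among genes whose groups did not overlap, it was the closest control array in 54.7% of those lower and in 51.7% of those higher in cKO arrays. Without it, 16 genes passed, 6 higher and 10 lower, among them Tnc, Rassf9, Meox1 and Cldn5 on the lower side and Psmc6 and Car3 on the higher side. Because no gene passed with all arrays, the differences below are given as values.

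Tnc and Rassf9 stood apart from all other genes by their statistics. Tnc, which encodes the matrix glycoprotein tenascin C, had log2 signals of 4.04, 3.97 and 4.18 on cKO arrays, against 4.99, 4.87 and 4.85 on control arrays. The difference was -0.84 ± 0.09 (SE), on a probe set whose signal lay close to that of the negative controls. Rassf9, a member of the RASSF family that is found on recycling endosomes, had 5.78, 5.93 and 5.94 on cKO arrays, against 7.79, 8.31 and 7.90 on control arrays. Its difference of -2.12 ± 0.24 (SE) made it 4.35-fold lower in cKO arrays (limma adjusted p = 0.0578 for both genes). On SD neither gene showed that gap: Tnc lay between 3.97 and 4.22 and Rassf9 between 5.53 and 6.61 over all 6 SD arrays. The cKO HFD arrays therefore lay near the SD arrays of both genotypes, and the control HFD arrays lay above them.

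The other 8 of the 10 lowest statistics belonged to Meox1, Galnt18, Pdgfb, Lta4h, Mif, Plk2, Elmo2 and Sox18. Meox1, a homeobox factor of the somite and of activated fibroblasts, had 4.37, 4.90 and 4.94 on cKO arrays, against 6.22, 6.08 and 5.69 on control arrays (difference -1.26 ± 0.19, SE). Galnt18, an enzyme that starts O-linked glycosylation, had 4.89, 5.23 and 5.05 on cKO arrays, against 5.90, 5.98 and 5.82 on control arrays. Pdgfb, the growth factor with which endothelial cells recruit pericytes, had 5.41, 5.56 and 5.57 on cKO arrays, against 6.42, 6.54 and 6.34 on control arrays. In each of these genes the 2 groups were separated by more than the spread within either. Mif, a macrophage cytokine, differed by -0.97 ± 0.17, Lta4h, which makes leukotriene B4, by -0.53 ± 0.09, and Plk2, a polo-like kinase, by -1.55 ± 0.29 (SE). Elmo2, a partner of Dock proteins in Rac activation, differed by -0.57 and Sox18, a transcription factor of endothelial cells, by -0.94. The limma adjusted p was 0.287 for Meox1 and Galnt18, 0.385 for Pdgfb and 0.480 for the rest. In all 10 genes the mean of the cKO HFD arrays lay nearer to the mean of the 6 SD arrays than that of the control HFD arrays did, which held for 80.7% of the genes lower in cKO arrays without overlap, for 63.1% of all tested genes and for 6 of the 10 genes of highest statistics. The SD arrays, apart from control SD array 2, carried more skeletal muscle signal than any HFD array.

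The 10 highest statistics were smaller in size, with an adjusted p of 0.480 each. Acsl4, which activates arachidonic acid, had 10.16, 10.12 and 10.13 on cKO arrays, against 9.38, 9.20 and 9.67 on control arrays, a difference of 0.72 ± 0.14 (SE). Its cKO arrays lay close together, and its control arrays were the more variable group. Cers4, a ceramide synthase, had 7.82, 7.07 and 7.56 on cKO arrays, against 6.46, 6.44 and 6.75 on control arrays. Aldh1l1, a folate enzyme of cytosol that is also used as an astrocyte marker, had 8.39, 8.13 and 7.88 on cKO arrays, against 6.79, 7.10 and 7.62 on control arrays. Psmc6, an ATPase subunit of the proteasome, had 15.56, 15.06 and 15.29 on cKO arrays, against 13.94, 13.60 and 14.82 on control arrays, and passed without control array 3 (limma adjusted p = 0.0196). Hey2, a target of Notch in arteries, differed by 0.95 ± 0.21 and Snx16, a sorting nexin, by 1.09 ± 0.24 (SE). Gldc, of the glycine cleavage system, Plekhf1, Btla and the immunoglobulin segment Ighv1-63 completed the 10 at differences of 0.70, 0.75, 0.47 and 0.55, with signals no higher than 5.04 on any HFD array. Ighv1-63 belongs to a family of near-identical segments, so its signal may come from other members. Of these 20 genes, 5 averaged below the lowest negative control median.

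**Figure D2:**
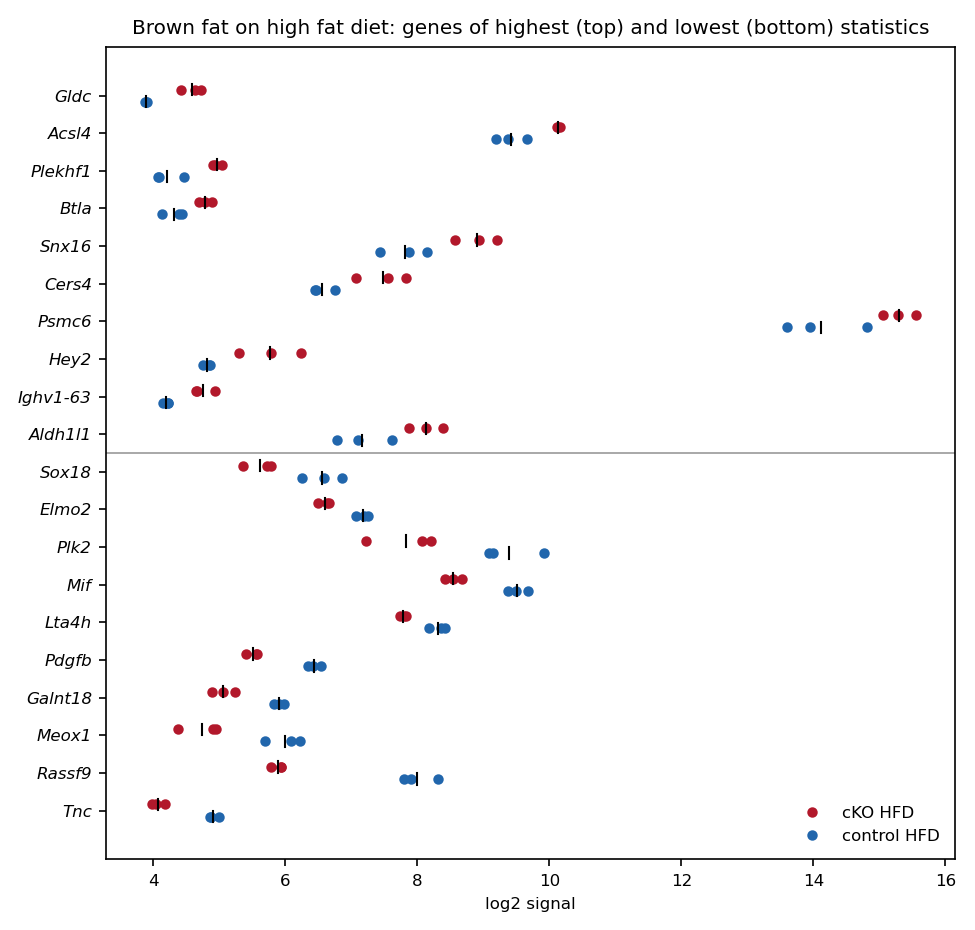
Log2 signal on each HFD array of the 10 genes with the highest (top) and the 10 with the lowest (bottom) statistics; cKO arrays are drawn above control arrays, and vertical strokes mark group means. No gene's cKO and control arrays overlap, and the gap is widest for Rassf9, where cKO arrays lie at 5.78 to 5.94 and control arrays at 7.79 to 8.31.

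Genes of blood vessels made up the list with the lowest median among lists with at least 5 tested genes. Of 33 tested genes of endothelial and mural cells, 25 were lower and 8 higher in cKO arrays, with a median difference of -0.465 against -0.016 over all genes. All 3 cKO arrays lay below all 3 control arrays in 20 of the 33, where 12.5% of all genes did so. They lay above in 3, where 7.33% of all genes did. At an unadjusted p under 0.05 there were 15 lower members, where 5.39% of all genes were. At that threshold 1 member was higher, where 2.87% were, and 0 passed the adjusted threshold. The list mean was 7.50, 7.56 and 7.59 on cKO arrays, against 7.91, 8.20 and 7.83 on control arrays, and the groups did not overlap. In a bulk sample fewer endothelial cells and less RNA per cell cannot be told apart.

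The members of the list that define endothelium were lower together. Pecam1, the adhesion molecule CD31, had 9.20, 9.02 and 8.98 on cKO arrays, against 10.31, 11.05 and 9.85 on control arrays, a difference of -1.33 ± 0.29 (SE). Cdh5, the cadherin of endothelial junctions, had 11.39, 11.48 and 11.46 on cKO arrays, against 12.97, 14.10 and 12.40 on control arrays. Kdr, the main receptor of VEGF-A, had 11.39, 11.33 and 11.56 on cKO arrays, against 12.69, 13.86 and 12.83 on control arrays. In these genes the cKO arrays lay close together, and control array 2 was the highest array in each. Eng, the TGF-beta co-receptor endoglin, had 8.95, 9.22 and 9.68 on cKO arrays, against 10.69, 11.73 and 10.63 on control arrays. Cldn5, a claudin of tight junctions, had 5.89, 5.53 and 5.80 on cKO arrays, against 7.32, 7.81 and 6.52 on control arrays. Gpihbp1, which holds lipoprotein lipase on the capillary wall, had 8.37, 8.53 and 8.80 on cKO arrays, against 9.61, 10.60 and 9.35 on control arrays. The differences were -1.71 for Cdh5, -1.70 for Kdr, -1.73 for Eng, -1.47 for Cldn5 and -1.29 for Gpihbp1, with a limma adjusted p of 0.480 for Pecam1, Cdh5, Eng, Cldn5 and Gpihbp1 and 0.550 for Kdr. Cd93, a receptor of endothelial cells that was chosen after its values were seen, differed by -1.52 ± 0.36 (SE).

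The mural genes named here were divided. Rgs5 of pericytes, chosen after its values were seen, had 13.66, 13.84 and 13.45 on cKO arrays, against 15.09, 15.08 and 13.96 on control arrays. Pdgfrb, the pericyte receptor of Pdgfb, differed by -0.45 ± 0.22 (SE), with all cKO arrays below all control arrays. Smooth muscle genes lay the other way, although they were chosen after their values were seen: Myh11, a smooth muscle myosin, had 7.17, 8.27 and 8.02 on cKO arrays, against 6.72, 6.16 and 6.89 on control arrays, and Acta2, smooth muscle actin, differed by 1.15 ± 0.79 (SE). Lyve1, a receptor of lymphatic vessels and of some macrophages, had 11.61, 8.05 and 7.32 on cKO arrays, against 6.80, 5.65 and 8.10 on control arrays, a spread carried by cKO array 1. By value, the direction of the list held for the endothelial and pericyte genes named here and not for the smooth muscle genes named. Other mural members of the list are not given, so no split by cell type can be drawn from these genes.

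**Figure D3:**
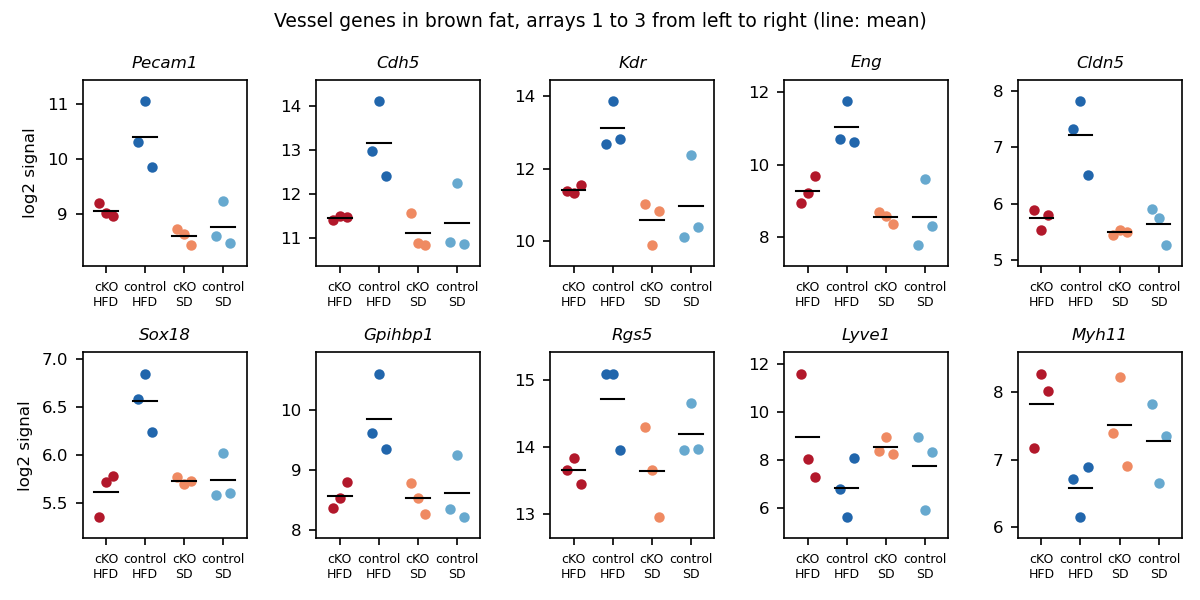
Log2 signal of 10 vessel genes on each BAT array, cKO HFD, control HFD, cKO SD and control SD from left to right in each panel, with arrays 1 to 3 side by side and the group mean as a line. In the upper row and in Sox18, Gpihbp1 and Rgs5 all cKO HFD arrays lie below all control HFD arrays, and control SD array 2, the SD array of lowest muscle signal, is the highest SD array of Pecam1, Cdh5, Kdr, Eng, Sox18, Gpihbp1 and Rgs5; Lyve1 and Myh11 do not follow.

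Control HFD array 2 and control SD array 2 had the lowest muscle means of their groups, 5.45 and 5.46, and the highest Kdr signals of their groups, 13.86 and 12.37. On cKO HFD arrays, where the lowest muscle mean was 5.48 on array 1, Kdr lay between 11.33 and 11.56. With the muscle score as a covariate the median of the list was -0.479 on the 6 HFD arrays, with 15 lower members at an unadjusted p under 0.05 where 7.4% of all genes were, and -0.364 over the 12 BAT arrays, with 14 where 5.17% were. The fibroblast and progenitor list averaged 9.77, 9.01 and 8.79 on cKO arrays, against 8.55, 8.47 and 8.82 on control arrays, and its part in the vessel result was not tested. Without control array 2, the array of the highest vessel signal, the median was -0.387. Then 6 members were lower at an unadjusted p under 0.05, where 471 of all 17124 genes were. Without cKO array 1 there were 10, where 586 of all genes were. On SD the list had a median genotype difference of -0.071, with 12 members higher and 21 lower. The interaction, which asks whether the genotype difference on HFD was unlike that on SD, called no gene (limma over 12 arrays, 0.0%, with 649 of the genes, 3.79%, under 0.05 before adjustment and a smallest adjusted p of 1.0). In 30 of the 33 vessel genes the cKO HFD mean lay nearer than the control HFD mean to the mean of the 6 SD arrays, against 63.1% of all genes. Among the 20 vessel genes lower without overlap this held for 19, against 80.7% of all genes lower without overlap. Every SD array except control SD array 2 had a muscle mean of 12.52 or more, above every HFD array. How far muscle signal set this nearness was not tested.

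The sequences before the starts of Kdr and Eng are shown because both genes were among the vessel genes with the largest differences and had an entry in the promoter table. They are 250 bases of RefSeq on GRCm38.p6, chr5:75978456-75978705 on the minus strand for Kdr and chr2:32646345-32646594 on the plus strand for Eng. Capitals mark GGAA and its complement TTCC, the core bound by ETS family factors, which are known regulators of endothelial genes.
Kdr: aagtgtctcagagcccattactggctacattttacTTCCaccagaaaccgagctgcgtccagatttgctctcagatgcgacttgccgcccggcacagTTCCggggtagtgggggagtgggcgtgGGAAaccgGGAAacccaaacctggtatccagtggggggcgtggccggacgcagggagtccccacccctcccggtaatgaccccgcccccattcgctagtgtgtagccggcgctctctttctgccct
Eng: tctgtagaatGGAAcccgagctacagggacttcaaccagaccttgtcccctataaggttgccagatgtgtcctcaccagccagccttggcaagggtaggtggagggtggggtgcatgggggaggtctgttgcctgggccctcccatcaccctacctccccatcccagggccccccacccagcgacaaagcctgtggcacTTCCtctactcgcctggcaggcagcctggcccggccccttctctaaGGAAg
Kdr held 4 such cores and Eng 3, searched on both strands with no overlap between matches. The core was present in 93.4% of 32851 promoter windows of this length, so its presence does not mark these genes.

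Cell cycle genes were mostly lower in cKO arrays. Of 22 tested members 19 were lower and 3 higher, with a median of -0.266, and 11 were lower at an unadjusted p under 0.05, against 5.39% of all genes; 0 passed after adjustment. All 3 cKO arrays lay below the control arrays in 10 of 22 members, where 12.5% of all genes did so. They lay above in 0, where 7.33% of all genes did. Mki67, the proliferation antigen Ki-67, had 5.63, 5.35 and 6.30 on cKO arrays, against 7.08, 7.01 and 7.86 on control arrays, a difference of -1.56 ± 0.34 (SE; limma adjusted p = 0.480). Top2a, the topoisomerase of dividing cells, had 4.69, 4.60 and 5.08 on cKO arrays, against 5.20, 5.13 and 5.90 on control arrays. Kif11, the spindle kinesin, had 4.67, 4.90 and 5.22 on cKO arrays, against 5.57, 5.41 and 5.95 on control arrays. Tpx2, an activator of Aurora A, differed by -0.55 ± 0.13 and Prc1, which bundles midzone microtubules, by -0.39 ± 0.10 (SE). Array 3 was the highest of its group in Mki67, Top2a and Kif11 in both genotypes. Top2a and the cKO values of Kif11 lay near the negative control medians of 4.73 to 5.10, where differences are compressed. The count lower at the unadjusted threshold was 5 without cKO array 2, where 745 of all 17124 genes were. It was 7 without control array 3, where 1070 of all genes were. The median stayed between -0.314 and -0.233 when any single HFD array was left out. On SD the median was -0.016.

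Promoters of Mki67 and Top2a are shown because these are the defining genes of that list. They are 250 bases before the start from RefSeq on GRCm38.p6, chr7:135716380-135716629 for Mki67 and chr11:99024190-99024439 for Top2a, both on the minus strand. Capitals mark CCAAT and its complement ATTGG, the box bound by the factor NF-Y, which is known to act on cell cycle promoters.
Mki67: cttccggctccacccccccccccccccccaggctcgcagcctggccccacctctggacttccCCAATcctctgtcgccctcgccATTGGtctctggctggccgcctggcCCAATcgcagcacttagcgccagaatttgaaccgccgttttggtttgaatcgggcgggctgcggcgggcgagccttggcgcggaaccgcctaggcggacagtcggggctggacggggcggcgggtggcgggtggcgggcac
Top2a: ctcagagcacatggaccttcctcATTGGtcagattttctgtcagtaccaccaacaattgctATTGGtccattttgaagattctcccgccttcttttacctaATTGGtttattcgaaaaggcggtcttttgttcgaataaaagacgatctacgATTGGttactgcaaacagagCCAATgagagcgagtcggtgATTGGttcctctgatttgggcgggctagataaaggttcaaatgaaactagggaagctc
Top2a held 6 boxes and Mki67 3, on both strands and without overlap, and 33.8% of all windows of this length held at least 1.

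Among 32 tested genes of the extracellular matrix 14 were lower and 18 higher in cKO arrays (median 0.015). At an unadjusted p under 0.05 there were 6 lower members, where 5.39% of all genes were lower, and 0 higher, where 2.87% were. Tnc, given above, had the smallest p of the list. Col4a2, a chain of the basement membrane collagen, had 8.20, 8.05 and 8.04 on cKO arrays, against 9.17, 9.43 and 8.75 on control arrays, a difference of -1.02 ± 0.29 (SE). Col4a1, its partner chain, chosen after its values were seen, differed by -0.79. Sparc, a collagen-binding matrix protein, had 15.41, 15.53 and 15.60 on cKO arrays, against 16.53, 16.74 and 15.83 on control arrays, and Tgfb1 differed by -0.38 ± 0.14. Limma gave adjusted p of 0.496, 0.550 and 0.565 for Col4a2, Sparc and Tgfb1. Fibrillar collagens of fibroblasts did not share this: Col1a1 had 8.83, 8.18 and 8.11 on cKO arrays, against 7.99, 7.69 and 9.22 on control arrays, and Col3a1 differed by 0.37 ± 1.04 (SE).

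Genes of fibroblasts and adipocyte progenitors stood higher in part of the cKO arrays. Of 18 tested members 12 were higher and 6 lower, with a median of 0.562. Above all control arrays lay 4, where 7.33% of all genes did, and below them 1, where 12.5% did. At an unadjusted p under 0.05 there was 1 higher member, where 2.87% of all genes were, and 0 lower, where 5.39% were. On SD 16 members were higher and 2 lower in cKO arrays, with a median of 0.350. Gsn, the actin-severing protein gelsolin, had 14.71, 14.50 and 14.10 on cKO arrays, against 12.33, 12.35 and 13.48 on control arrays (difference 1.72 ± 0.52, SE; limma adjusted p = 0.497). Dcn, the proteoglycan decorin, had 15.46, 14.96 and 13.84 on cKO arrays, against 13.18, 12.62 and 14.36 on control arrays, and Dpt, dermatopontin, had 14.68, 13.10 and 12.64 on cKO arrays, against 12.74, 11.24 and 11.97 on control arrays. Control array 3 stood above the other control arrays in Gsn and Dcn, and cKO array 1 was the highest in all 3 genes. Dpp4, a marker of interstitial progenitors, differed by 0.95 ± 0.56. The list median was 0.220 without cKO array 1 and 0.753 without cKO array 3, and with the muscle score as a covariate on the HFD arrays it was 0.760.

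Several wide gaps were in genes that stood far higher in cKO arrays; those not on a list were chosen after their values were seen. Cyp2e1, a cytochrome P450 that is abundant in liver and white fat, had 11.68, 11.30 and 12.25 on cKO arrays, against 5.13, 4.79 and 9.32 on control arrays (limma adjusted p = 0.506). Control arrays 1 and 2 lay near the negative control medians, so the size of its gap is not given. Retn, the adipokine resistin, had 15.01, 13.47 and 14.25 on cKO arrays, against 10.06, 8.31 and 12.32 on control arrays, a difference of 4.01 ± 1.15 (SE; limma adjusted p = 0.496). Trf, the iron carrier transferrin, had 15.46, 13.23 and 14.50 on cKO arrays, against 10.46, 9.40 and 11.69 on control arrays. In all 3 genes control array 3 lay between the other control arrays and the cKO arrays. C7, a late complement component, had 10.88, 10.91 and 9.43 on cKO arrays, against 6.87, 6.69 and 7.75 on control arrays. Podn, the small leucine-rich proteoglycan podocan, had 9.04, 8.67 and 8.39 on cKO arrays, against 6.55, 6.52 and 6.77 on control arrays, and had the narrowest spread of these genes. Ccdc80, a secreted protein of adipocytes, differed by 2.02 ± 0.84 and Apoe, the lipoprotein ligand, by 1.86 ± 0.52 (SE). Car3, the carbonic anhydrase of adipocytes, had 19.80 on all cKO arrays, close to the ceiling, against 17.56, 17.12 and 19.30 on control arrays, so its difference of 1.80 is compressed at the top. On the 6 SD arrays of both genotypes Cyp2e1 lay between 11.16 and 18.74, Retn between 13.95 and 17.79 and Trf between 13.45 and 16.18. In Cyp2e1, Retn, Trf, C7 and Podn every SD array lay above every control HFD array, so the control HFD arrays were the lowest group.

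**Figure D4:**
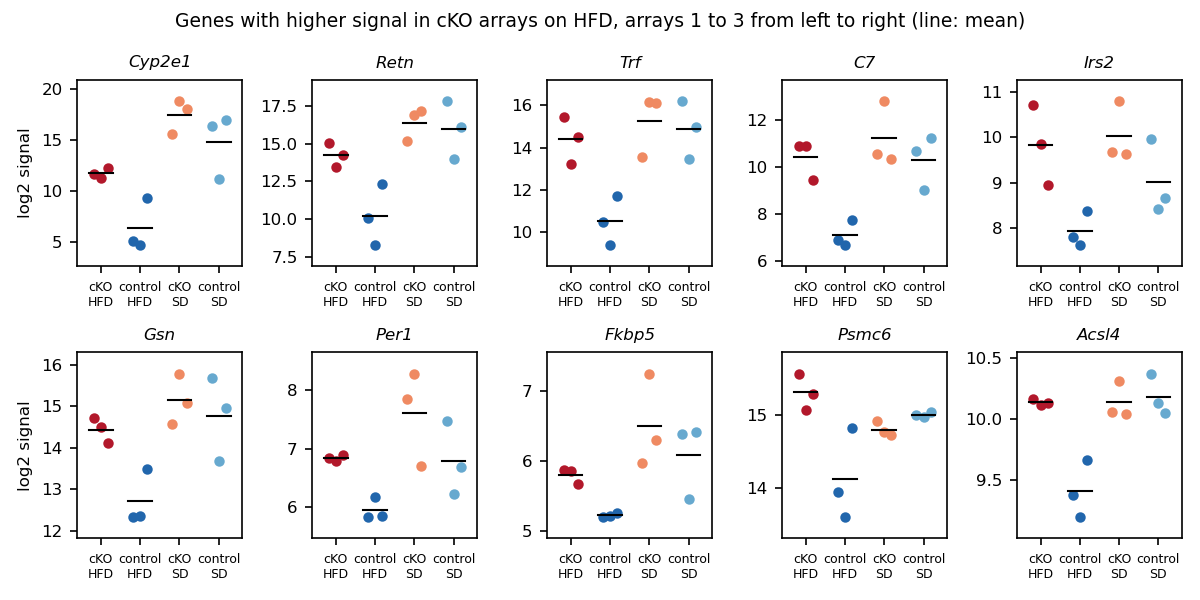
Log2 signal of 10 genes on each BAT array, in groups of cKO HFD, control HFD, cKO SD and control SD from left to right, with arrays 1 to 3 side by side and the group mean as a line. Each gene's cKO HFD arrays lie above its control HFD arrays, and in Cyp2e1, Retn, Trf and Irs2 control HFD array 3 is the highest of the control HFD arrays.

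A few genes with wide gaps on the lower side were also chosen after their values were seen. Mmp12, the macrophage elastase, had 4.44, 6.31 and 6.80 on cKO arrays, against 8.23, 7.30 and 8.59 on control arrays, a difference of -2.19 ± 0.55 (SE). Cyp27a1, the sterol 27-hydroxylase, had 8.47, 8.94 and 8.21 on cKO arrays, against 10.53, 10.61 and 9.63 on control arrays. Anxa2, a phospholipid-binding annexin, had 10.18, 10.60 and 11.04 on cKO arrays, against 12.38, 12.61 and 11.97 on control arrays. The differences of Cyp27a1 and Anxa2 were -1.72 ± 0.34 and -1.71 ± 0.54 (SE). Lrrc8b, a subunit of volume-regulated anion channels, and Rflnb, a filamin-binding protein, differed by -2.02 and -1.83, with control array 3 the lowest control array in both.

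General adipocyte genes had a median of -0.024 over 21 genes, with 6 below all control arrays, where 12.5% of all genes were, and 1 above, where 7.33% were. On the 6 HFD arrays alone 6 were lower at an unadjusted p under 0.05, where 8.78% of all genes were. Pparg, the master regulator of adipocytes, had 14.97, 15.03 and 14.91 on cKO arrays, against 15.65, 15.70 and 15.27 on control arrays, and Plin1, the lipid droplet coat protein perilipin 1, had 14.50, 14.83 and 15.06 on cKO arrays, against 15.32, 15.47 and 15.17 on control arrays. Retn, whose wide gap is given above, is also on this list. Adipoq, the adipokine adiponectin, differed by 0.17 ± 0.16 (SE), with groups that overlapped. Its deposited value was the same, 13.4822, on control HFD arrays 1 and 3, cKO SD array 1 and control SD array 2. The reason was not tested, so a lack of difference cannot be read from this gene.

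Thermogenic genes showed small differences in either direction. Of 28 tested genes of brown adipocytes 8 were higher and 19 lower in cKO arrays, with a median of -0.210. All control arrays lay below 3 members, where 7.33% of all genes stood so, and above 4, where 12.5% did. On the 6 HFD arrays alone 5 were lower at an unadjusted p under 0.05, against 8.78% of all genes. Ppargc1a, the coactivator of mitochondrial biogenesis, had 10.99, 12.05 and 11.85 on cKO arrays, against 12.38, 12.45 and 11.66 on control arrays (difference -0.53 ± 0.34, SE; limma adjusted p = 0.729). Dio2, the deiodinase that activates thyroid hormone, had 5.52, 8.04 and 7.22 on cKO arrays, against 7.22, 6.99 and 6.48 on control arrays. Prdm16, the brown fat determinant, differed by -0.13 ± 0.35. In these 3 genes the groups overlapped, and cKO array 1 was the lowest array for Ppargc1a and Dio2. Irf4, a factor that partners with Ppargc1a, had 6.64, 6.23 and 5.27 on cKO arrays, against 4.96, 4.93 and 5.46 on control arrays, overlapping through cKO array 3, and Lhx8, a homeobox factor used as a brown fat marker, differed by 0.39 ± 0.16 without overlap. Both had an unadjusted p under 0.05. The list median turned to 0.171 with the muscle score as a covariate over the 12 arrays, and was -0.250 with it on the 6 HFD arrays. The SE of these genes takes in the SD arrays, on which they spread widely.

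Mitochondrial and fat-burning genes were lower by small amounts. Of 67 tested subunits of the respiratory chain encoded in the nucleus, 57 were lower and 8 higher in cKO arrays, with a median of -0.166, and 12 lay below all control arrays, where 12.5% of all genes did. The tricarboxylic acid cycle had 17 of 19 members lower (median -0.199), and the mitochondrial ribosome and biogenesis list 40 of 48 (median -0.177), of which 15 lay below all control arrays. Fatty acid uptake, lipolysis and beta-oxidation had 30 of 38 members lower and 6 higher, with a median of -0.273. None of these genes passed, and 1 or 0 members of each list were lower at an unadjusted p under 0.05 (5.39% of all genes). On the 6 HFD arrays alone, without the spread of the SD arrays, 13 respiratory chain genes, 7 of the tricarboxylic acid cycle, 9 of the mitochondrial ribosome list and 10 of the fat-burning list were lower at that threshold, against 8.78% of all genes, and 0 passed after adjustment. Cpt1b, which carries fatty acids into mitochondria, had 15.32, 15.92 and 15.62 on cKO arrays, against 16.76, 16.82 and 15.97 on control arrays, a difference of -0.90 ± 0.79 (SE). Idh2, a mitochondrial isocitrate dehydrogenase, had 10.67, 11.03 and 10.79 on cKO arrays, against 12.72, 12.51 and 10.80 on control arrays, where control array 3 lay among the cKO arrays. Uqcrc2, a core subunit of complex III, had 17.66, 17.95 and 17.71 on cKO arrays, against 18.14, 18.20 and 17.95 on control arrays, which overlapped, and Ndufs7 of complex I differed by -0.63 ± 0.35. Mrps18b, a protein of the mitochondrial ribosome, had 7.95, 8.04 and 7.95 on cKO arrays, against 8.60, 8.80 and 8.47 on control arrays. Cd36, the fatty acid translocase, stood at 19.83 on all 6 arrays, near the ceiling, and Acadm and Pnpla2 differed by -0.01 each. With the muscle score as a covariate over the 12 arrays the medians of the respiratory chain, the tricarboxylic acid cycle and the fat-burning list were 0.030, 0.074 and 0.030, and with it on the 6 HFD arrays they were -0.140, -0.200 and -0.325. The mitochondrial lists were also lower in cKO arrays on SD. There the median was -0.218 for the respiratory chain and -0.256 for the tricarboxylic acid cycle. It was -0.172 for the mitochondrial ribosome list and -0.075 for the fat-burning list.

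Genes of lipid synthesis and insulin action gave single differences. Irs2, an insulin receptor substrate, had 10.71, 9.85 and 8.95 on cKO arrays, against 7.81, 7.63 and 8.38 on control arrays, a difference of 1.90 ± 0.54 (SE; limma adjusted p = 0.496). Irs1 had 7.92, 7.69 and 8.06 on cKO arrays, against 7.33, 7.39 and 7.51 on control arrays. Pkm, the pyruvate kinase of most tissues, had 14.36, 14.95 and 15.15 on cKO arrays, against 15.65, 16.00 and 15.81 on control arrays, without overlap. Both insulin receptor substrates were therefore higher by value, and the glucose transporter Slc2a4 overlapped between groups at a difference of -0.17. The list of insulin signalling and glucose use did not share that direction: of 37 tested members 13 were higher and 23 lower, with a median of -0.085. Above all control arrays lay 2 members, where 7.33% of all genes did, and below them 5, where 12.5% did. Fads1, the delta-5 desaturase, had 8.39, 8.13 and 8.42 on cKO arrays, against 7.03, 6.87 and 7.74 on control arrays (1.10 ± 0.31, adjusted p = 0.496). Fasn, the fatty acid synthase, lay between 19.26 and 19.72 on all arrays, and Scd1 at the ceiling. Cholesterol synthesis genes had 14 of 18 members higher (median 0.323), with 0 at an unadjusted p under 0.05: Idi1, an isomerase of the pathway, had 10.43, 11.15 and 11.09 on cKO arrays, against 9.26, 9.45 and 10.69 on control arrays. That median ranged over 0.179 to 0.439 as single HFD arrays were left out, and was 0.110 with the muscle score on the HFD arrays. On SD the direction was the other: 17 members were lower and 1 higher in cKO arrays (median -0.711). There 2 were lower at an unadjusted p under 0.05, where 324 of 17124 genes were. The interaction was above 0 in 17 members, 7 of them under 0.05 before adjustment, where 283 of all genes were, and 0 passed. Lep, the adipokine leptin, had 11.89, 10.06 and 13.00 on cKO arrays, against 14.73, 14.57 and 10.39 on control arrays, a difference of -1.58 ± 1.21 whose groups overlapped through control array 3.

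Clock genes did not share a direction, but 2 of the Period genes stood higher. Per1, the light- and glucocorticoid-inducible repressor, had 6.84, 6.78 and 6.89 on cKO arrays, against 5.83, 6.16 and 5.84 on control arrays, a difference of 0.89 ± 0.40 (SE; limma adjusted p = 0.602). Per2 had 7.46, 8.26 and 7.60 on cKO arrays, against 7.19, 7.22 and 7.32 on control arrays (0.53 ± 0.21, adjusted p = 0.587). Neither overlapped between groups; Per3, Cry1 and Nr1d1 did, at differences of -0.05, 0.12 and -0.16. Clock, the partner of Bmal1, had 13.49, 13.50 and 13.22 on cKO arrays, against 13.75, 13.54 and 13.59 on control arrays, and Cry2 differed by -0.25 ± 0.15. Of 18 tested clock genes 7 were higher and 11 lower. Among the outputs of the clock Dbp differed by 0.22 ± 0.63, with groups that overlapped. Tsc22d3, which encodes the glucocorticoid-induced protein GILZ, had 7.77, 8.37 and 7.96 on cKO arrays, against 7.16, 7.36 and 6.99 on control arrays. Fkbp5, a co-chaperone of the glucocorticoid receptor, had 5.88, 5.86 and 5.68 on cKO arrays, against 5.21, 5.22 and 5.26 on control arrays. Glucocorticoid responsive genes, a list that shares Per1 with the core clock and 3 genes with the clock outputs, had 14 of 20 members higher, a median of 0.286 and 4 above all control arrays, where 7.33% of all genes lay. That median was 0.079 to 0.468 with any single HFD array left out.

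The promoter at the first listed start of Per1 is shown because this gene is a known direct target of Bmal1 and Clock. It is 250 bases of RefSeq on GRCm38.p6, chr11:69098699-69098948 on the plus strand, with the E-box CACGTG, the element that Bmal1 and Clock bind, in capitals.
Per1: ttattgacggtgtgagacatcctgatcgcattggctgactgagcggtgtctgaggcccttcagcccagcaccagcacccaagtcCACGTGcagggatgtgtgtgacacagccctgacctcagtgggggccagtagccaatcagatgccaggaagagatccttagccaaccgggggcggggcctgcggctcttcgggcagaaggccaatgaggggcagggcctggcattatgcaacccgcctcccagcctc
The element stood at position -166 from the start, in a letter sequence that reads the same on both strands. The window of the second listed start of Per1, chr11:69099902-69100151, held none. The element was present in 6.02% of the 32851 windows.

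Stress and protein quality genes differed by list. Ddit3, the stress factor CHOP, had 8.05, 8.51 and 7.82 on cKO arrays, against 9.25, 9.23 and 8.48 on control arrays, a difference of -0.86 ± 0.25 (SE; limma adjusted p = 0.496). Atf6, a sensor of unfolded protein, differed by -0.51 ± 0.17, and Shmt2, a mitochondrial one-carbon enzyme, by -0.50 ± 0.15, while Dnajb9, a chaperone of the endoplasmic reticulum, differed by 0.91 ± 0.29. Of the 31 genes of this list 23 were lower, 4 of them at an unadjusted p under 0.05, where 5.39% of all genes were, and 1 was higher at that threshold, where 2.87% were. Heat shock genes had 19 of 23 members higher (median 0.316), with the widest values on cKO array 2: Hspa1a had 5.65, 10.06 and 4.21 on cKO arrays, against 3.93, 3.83 and 4.73 on control arrays, and Hsph1 had 12.31, 14.61 and 12.12 on cKO arrays, against 11.60, 11.00 and 11.92 on control arrays. The list median was 0.153 without that array. Proteasome subunits had 24 of 31 members higher (median 0.230), with Psmd8 at -0.74 ± 0.22. On SD 31 were lower and 0 higher in cKO arrays (median -0.224). There 8 lay below all control SD arrays, where 635 of 17124 genes did. On HFD the count at an unadjusted p under 0.05 depended on control array 3. It was 1 higher subunit with all arrays and 15 without control array 3, where 627 of all genes were. The HFD median with the muscle score on the HFD arrays was 0.011.

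Immune genes were mixed, and cKO array 1 stood apart in several. Macrophage genes had 24 of 33 members higher and a median of 0.182, which was 0.012 without cKO array 1. Adgre1, a general macrophage surface antigen, had 7.96, 8.33 and 7.34 on cKO arrays, against 8.46, 7.22 and 7.88 on control arrays. Itgax, the CD11c integrin of lipid-associated macrophages and dendritic cells, had 4.37, 4.88 and 5.05 on cKO arrays, against 5.62, 5.22 and 5.74 on control arrays, and Lgals3, galectin 3, had 5.52, 6.01 and 6.24 on cKO arrays, against 6.52, 6.25 and 6.90 on control arrays. Itgax and Lgals3 were the only 2 of 33 members below all control arrays, where 12.5% of all genes were. Above all control arrays lay 0 members, where 7.33% of all genes did. Adgre1 overlapped between groups, and the cKO values of Itgax lay near the negative control medians of 4.73 to 5.10. Interferon response genes had 23 of 27 members higher (median 0.159), 3 at an unadjusted p under 0.05 (2.87% of all genes), and 1 lay above all control arrays (7.33% of all genes). Ifit1, an interferon-induced RNA-binding protein and a member of that list, had 5.55, 5.59 and 5.38 on cKO arrays, against 5.21, 5.03 and 5.05 on control arrays. Cxcl13, the chemokine of lymphoid follicles, had 14.93, 9.58 and 8.72 on cKO arrays, against 6.10, 5.86 and 9.76 on control arrays. S100a8, a calprotectin subunit of neutrophils, had 5.79, 4.39 and 4.73 on cKO arrays, against 3.94, 4.29 and 3.90 on control arrays. Complement C4b had 12.99, 8.74 and 8.80 on cKO arrays, against 7.04, 6.49 and 8.34 on control arrays. cKO array 1 was the highest array for Cxcl13, S100a8 and C4b, as for Lyve1 above, and the cause was not tested.

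Skeletal muscle genes were higher by value but followed single arrays. All 36 tested contractile genes were positive, with a median of 1.762 and 0 at an unadjusted p under 0.05. Acta1, skeletal actin, had 7.85, 13.23 and 16.41 on cKO arrays, against 9.01, 8.12 and 12.93 on control arrays (difference 2.48 ± 3.02, SE; limma adjusted p = 0.895). Myh4, the fastest myosin, had 5.02, 15.08 and 17.59 on cKO arrays, against 9.18, 5.11 and 13.35 on control arrays. In both genes each genotype had an array of low signal, and cKO arrays 2 and 3 lay above every control array. The list median was 0.512 to 2.907 with any single HFD array left out. Asph, which hydroxylates aspartyl residues and also yields the calcium release protein junctin, was the only member of the excitation list at an unadjusted p under 0.05, with 9.68, 9.24 and 9.09 on cKO arrays, against 8.07, 7.89 and 8.61 on control arrays; its order over arrays was not that of Acta1. Cdh19, a cadherin of Schwann cells, had 7.55, 8.26 and 7.89 on cKO arrays, against 6.11, 6.27 and 7.20 on control arrays (1.38 ± 0.42, limma adjusted p = 0.497), while 12 of 16 nerve and Schwann cell genes were higher at a median of 0.094.

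The genotype difference on SD, estimated in the same fit, called no gene either (limma, 0.0%), with 610 genes (3.56%) at an unadjusted p under 0.05. The 2 diets share no arrays but share each gene's estimate of spread. The lowest interaction statistics belonged to Tnc (-0.83 ± 0.13), Rassf9 (-1.76 ± 0.34) and Meox1 (-1.26 ± 0.26, SE), whose HFD differences are given above, and to Galnt18, Ttc39b and Nt5dc2. The highest belonged to Gldc, Acsl4, Ifit3b, Zfp420, Lgr4 and Mip. Lgr4, an R-spondin receptor, had 9.19, 8.67 and 8.66 on cKO HFD arrays, against 8.23, 8.06 and 8.42 on control HFD arrays, and 8.82, 9.03 and 8.94 on cKO SD arrays, against 9.42, 9.16 and 9.17 on control SD arrays. The genotype gap of Lgr4 thus had opposite signs on the 2 diets, with an interaction of 0.92 ± 0.23 (SE; limma adjusted p = 1.0). Ttc39b, a protein linked to cholesterol handling, had -0.41 on HFD and an interaction of -0.62 ± 0.13.

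On chromosome 3, 16 tested genes from Pex2 to Snx16, a run singled out in earlier results of the series, had 13 higher and 2 lower members on HFD and Fabp4 at the ceiling, with a median of 0.449; 9 of the 16 lay above all control arrays, where 7.33% of all genes did. Zbtb10, a zinc finger repressor, differed by 1.19 and Snx16 by 1.09 on HFD, while the run had a median of 0.469 on SD, where 15 members were higher.

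**Figure D5:**
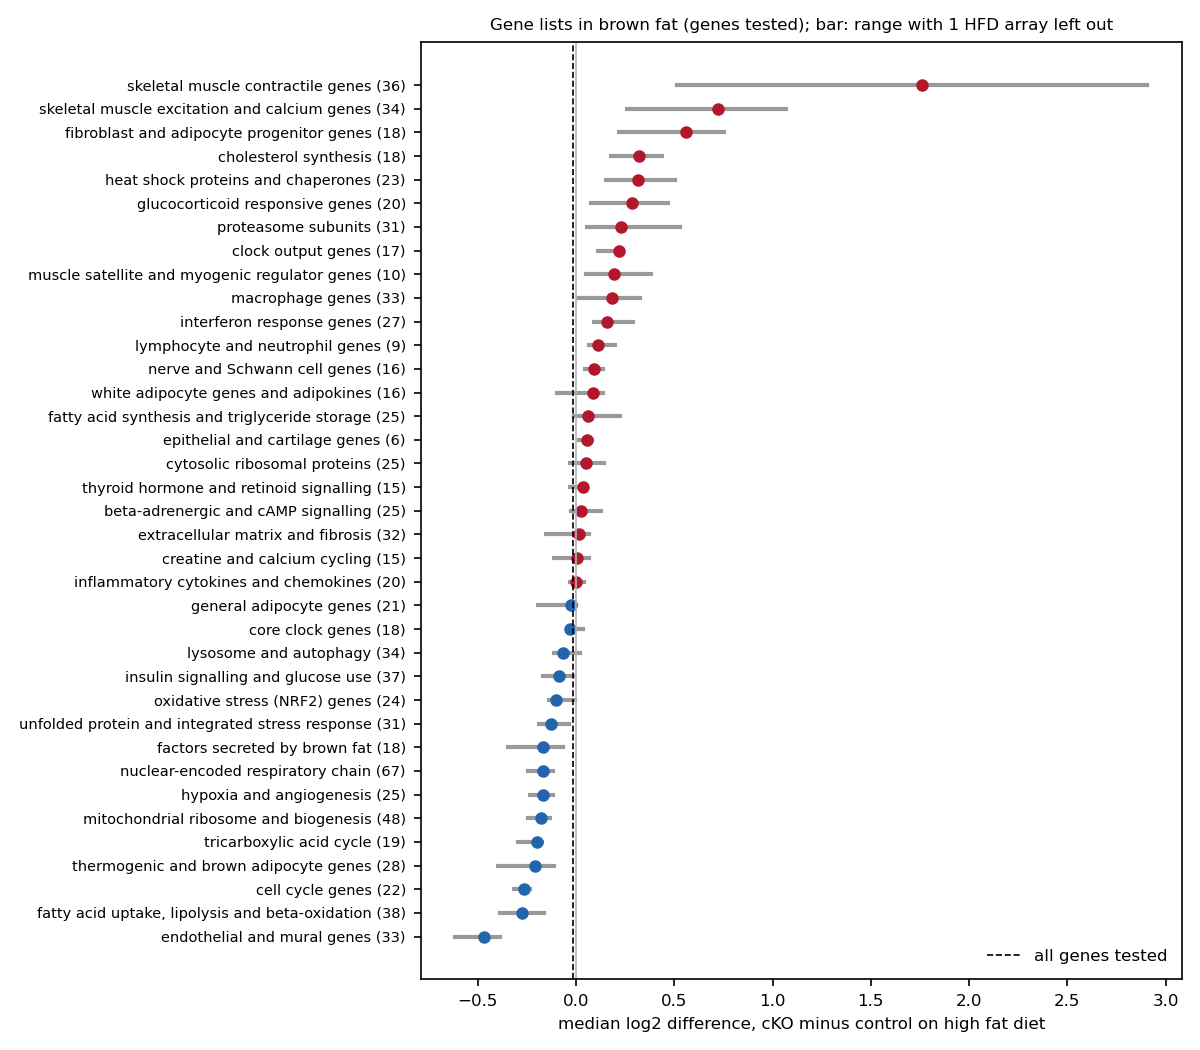
Median log2 difference, cKO minus control on HFD, of each gene list with at least 5 tested genes (number in brackets), with bars for the range of medians when any single HFD array was left out and a dashed line at the median of all genes, -0.016. Endothelial and mural genes have the lowest median, -0.465, and skeletal muscle contractile genes the highest, 1.762, with the widest bar.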

How the data were processed

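The deposited values were log2 signals of 72688 array features, made with Affymetrix Expression Console 1.1.1 and PLIER 2.0, per the submitters' processing notes. The normalization and genome build were not given in the sources used here. They were used as deposited. Features with 1 gene symbol whose mean over the 12 BAT arrays was at least the table's median, 4.13, were kept, the brightest per gene, which left 17124 genes; a rank by signal can mix probe sets of unequal response. The 4 group means were fitted with limma 3.58.1 (R 4.3.3; 8 residual degrees of freedom), with Benjamini-Hochberg adjustment at 0.05. The fit was tested on simulated data. The number of arrays limits the precision. The genes, lists and rules were chosen with earlier results of these data known. Named genes were Arntl and clock anchors, the 10 highest and 10 lowest statistics, the anchors and up to 4 members of smallest p of each list, and the 6 highest and lowest interaction statistics; other named genes were chosen after their values were seen. Alternatives covered normalization, pseudocount (16), filter, probe choice, variance prior, array weights, replicate block, muscle score and left-out arrays. The replicate numbers were checked for pairing, which 3 arrays per group cannot exclude, and the arrays were fitted as unpaired.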

Additional observations from a re-analysis of the deposited data

How the results depend on the processing

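The count of 0 genes on HFD (limma, 1414 at an unadjusted p under 0.05) was 2 with a trended and robust prior, 7 with gene-by-gene array weights and 1 without the 2 SD arrays of lowest Ucp1, all lower in cKO. It was 191 (53 higher and 138 lower) with REML array weights, which did not converge and gave cKO SD array 3 a weight of 30.6 and control SD array 3 one of 0.000317. Leaving out single arrays gave 0 to 16: 1 without cKO HFD array 1, 16 without control HFD array 3 and 1 without control SD array 1 or 2. On the HFD arrays alone, without control HFD array 3, there were 14 (4 higher and 10 lower). The interaction count was 0 to 2, with 1 without cKO HFD array 1 and 2 without control HFD array 3. The cause was not tested. The limma fit with the replicate number as a block called 0 genes (1317 at an unadjusted p under 0.05, smallest adjusted p 0.0938). The deviations of same-numbered cKO and control HFD arrays correlated at -0.075 to 0.14 over the 3 numbers, and those of other numbers at -0.161 to 0.175. With 3 arrays per group these values cannot exclude pairing. The gene-by-gene weights, the SD arrays left out, the muscle score on HFD arrays and the HFD-only single omissions were chosen after seeing the data. Over 7320 values of 244 named genes, 54 passed the threshold that had not, and 162 values, in 53 genes, had the other sign; as none of these genes was called with all arrays, no call could reverse. None of the 20 genes of highest and lowest statistics turned sign (0 of 20).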
